A study of Mus musculus with 24 samples.

Results

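The comparison described here is the main effect of brequinar over both antibodies: all 12 tumours from brequinar-treated mice against all 12 tumours from mice without it, with the antibody held as a covariate. The 2 sides were taken from the sample labels and from no measured value, and together they are all 24 tumours of the series. Every tumour was a D4M tumour, from a mouse melanoma cell line, grown in a wild-type C57BL/6 mouse, and every mouse received an antibody by intraperitoneal injection. Without brequinar, 6 tumours were from mice given the IgG2a control antibody (IgG2a). Another 6 were from mice given an antibody against the checkpoint receptor PD-1 (PD-1). With brequinar, 6 were from mice given it together with IgG2a (BRQ+IgG2a) and 6 together with anti-PD-1 (BRQ+PD-1). All tumours come from 1 cell line, and the dose, the schedule, the sex of the mice, the injection site and tumour size are given by no source used here. Each tumour gave 1 bulk RNA library, so fewer cells of a type and less RNA per cell cannot be told apart in any result below.

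Brequinar inhibits dihydroorotate dehydrogenase, the enzyme of the inner mitochondrial membrane that makes orotate in the de novo synthesis of pyrimidines. Cells need the products of this pathway, UTP and CTP, for RNA and DNA, for sugar nucleotides, and for CDP-choline, the precursor of phosphatidylcholine. Cells can also take up uridine through nucleoside transporters and phosphorylate it, which is called salvage. Ribosomal RNA synthesis in the nucleolus is a large consumer of nucleotides, and dividing cells, lymphocytes among them, draw on the same pool. The comparison asks which transcripts differed with brequinar on average over both antibodies. A call in it does not show that the gene changed with each antibody.

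Library totals ran from 19106205 to 28882032 counts with brequinar and from 20256612 to 34282319 without it, so 1 CPM, the unit of level below (counts scaled to library size), stood for 19.1 to 34.3 counts. Skeletal muscle transcripts set 4 libraries apart, 3 without brequinar (IgG2a replicates 2 and 3, PD-1 replicate 6) and 1 with it (BRQ+IgG2a replicate 4): Acta1, skeletal muscle actin, was at 4070 CPM or more there and at 425 CPM or less in the other 20. The summed level of the 20 muscle markers ran from 30.7 to 17400 CPM with brequinar (median 81.4) and from 33.8 to 50300 CPM without it (median 134), and results below that lose the call or move by over 1.5 times without these 4 libraries are given without them as well. Of the melanocyte markers that define pigmented melanoma, Tyr and Dct had no count in any library, Mlana stayed at or below 0.178 CPM and Tyrp1 at or below 0.068 CPM. The neural crest and mesenchymal markers Axl (618 to 1019 CPM) and Sox9 (91.6 to 254.5 CPM) were present in all 24 libraries. These markers are a part of a list of 20 melanocyte and neural crest genes. Of the 20, 11 passed the expression filter, Mitf and Kit among them. Mitf was at 42 CPM and Kit at 26.2 CPM in BRQ+IgG2a replicate 5, with 18.5 and 14.9 CPM in the next library of that group. The levels of the remaining members are not reported here.

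Over both antibodies, 1017 genes were higher and 864 lower with brequinar at an adjusted p under 0.05 (edgeR quasi-likelihood test, Benjamini-Hochberg), out of 16029 tested. That is 11.7% of the genes tested, 6.34% higher and 5.39% lower. At an unadjusted p under 0.05 there were 4388 genes. Counts of list genes below are to be read beside these values of all genes. The median log2 fold change of all genes tested was 0.006. Without the muscle-rich libraries 912 were higher and 612 lower, and 1203 of the 1881 genes were among them. Leaving out 1 library at a time gave between 1366 (without PD-1 replicate 2) and 2329 called genes (without BRQ+IgG2a replicate 5), within 1.5 times of the count over all libraries.

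Each antibody also gives its own comparison of 6 brequinar tumours with 6 others, and these 2 arms of the study share no tumour. With IgG2a, 291 of 15159 genes were higher (1.92%) and 46 lower (0.303%). With anti-PD-1, 171 of 15035 were higher (1.14%) and 189 lower (1.26%). At an unadjusted p under 0.05 there were 2321 genes with IgG2a and 3090 with anti-PD-1. These splits move with single libraries and with the tool. With IgG2a there were 887 higher and 446 lower without BRQ+IgG2a replicate 5, and 1167 and 667 with limma voom. With anti-PD-1 there were 164 higher and 108 lower without the muscle-rich PD-1 replicate 6, so that the majority turned. Of the 1881 genes called over both antibodies, 46 were also called in each arm, 37 higher and 9 lower. A further 254 were called with IgG2a only (228 higher, 26 lower), 259 with anti-PD-1 only (97 higher, 162 lower) and 1322 in neither arm alone. A call in 1 arm and not in the other does not show that the arms differ.

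The direction of a change was mostly shared between the antibodies. Of 288 genes higher with IgG2a and tested in both arms, 277 (96.2%) had a positive change with anti-PD-1, against 70% of all genes whose change with IgG2a was positive. Of 188 genes lower with anti-PD-1, 183 (97.3%) had a negative change with IgG2a, against 71.1% of all genes whose change with anti-PD-1 was negative. For the 45 genes lower with IgG2a the share was 86.7%, against 66.2% of all genes with a negative change there, and for the 169 higher with anti-PD-1 it was 86.4%, against 65.1% of all with a positive change there. The interaction test, which asks whether the brequinar change differed between the antibodies, called 0 genes with edgeR (0% of those tested; 1222 at an unadjusted p under 0.05), 13 with DESeq2 and 268 with limma voom.

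**Figure D1:**
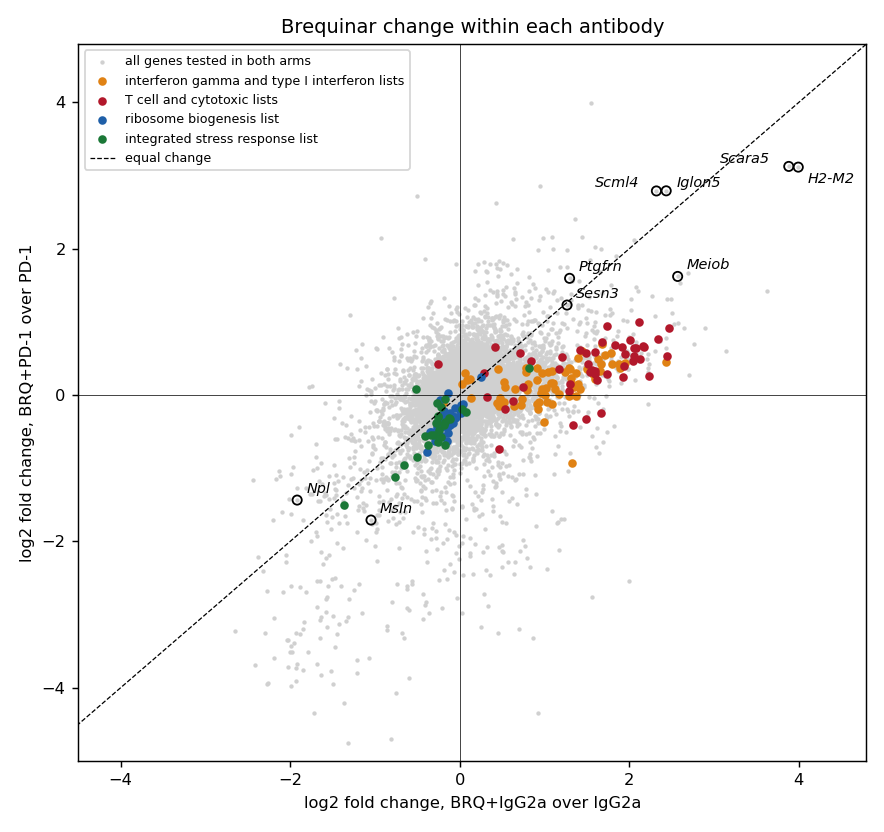
Log2 fold change with brequinar among the IgG2a tumours (x axis) and among the anti-PD-1 tumours (y axis) for every gene tested in both arms (grey), with members of 6 gene lists in colour and 9 named genes circled; n = 6 tumours against 6 in each arm. The ribosome biogenesis and integrated stress response members lie below 0 on both axes for the most part, while interferon, T cell and cytotoxic members lie mostly right of 0 and below the dashed line of equal change.

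The genes that separated the tumours best were those for which all 12 brequinar libraries lay on one side of all 12 others. There were 17 such genes with higher levels (0.106% of genes tested) and 6 with lower levels (0.0374%). Sesn3 had the smallest adjusted p of all genes. It encodes a sestrin, a stress-inducible protein that restrains mTOR signalling. Its level was 63.9, 84.4 and 105 CPM without brequinar (lowest, median and highest of 12 libraries) and 129.9, 200.1 and 278 CPM with it. The lowest brequinar tumour thus lay above the highest tumour without it, and the log2 fold change was 1.26 ± 0.11 (SE here and below; adjusted p 2.89e-07). The change was 1.27 ± 0.16 with IgG2a and 1.23 ± 0.14 with anti-PD-1.

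Ptgfrn, a membrane protein that binds tetraspanins and inhibits prostaglandin F binding to its receptor, had 60.8, 84.4 and 132 CPM without brequinar (lowest, median, highest) and 185, 254 and 320.1 CPM with it, and rose by 1.46 ± 0.13 (adjusted p 7.92e-07). Enpp5, of the ectonucleotide pyrophosphatase and phosphodiesterase family, went from 4.36, 6.68 and 10.4 to 13.7, 16.6 and 33.1 CPM and rose by 1.38 ± 0.15. Scara5, a receptor for ferritin, went from 1.15, 2.76 and 9.98 to 10.4, 42.5 and 92.3 CPM. Its rise of 3.51 ± 0.37 (adjusted p 7.69e-06) was the largest among the genes whose libraries did not overlap, with 3.88 ± 0.50 under IgG2a and 3.13 ± 0.50 under anti-PD-1. Scml4, a Polycomb-related gene, went from 0.980, 2.10 and 3.98 to 4.91, 10.9 and 30.5 CPM (2.57 ± 0.29). Cysltr2, a receptor for cysteinyl leukotrienes, went from 0.576, 0.996 and 1.86 to 2.17, 3.35 and 5.08 CPM (1.67 ± 0.19).

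**Figure D2:**
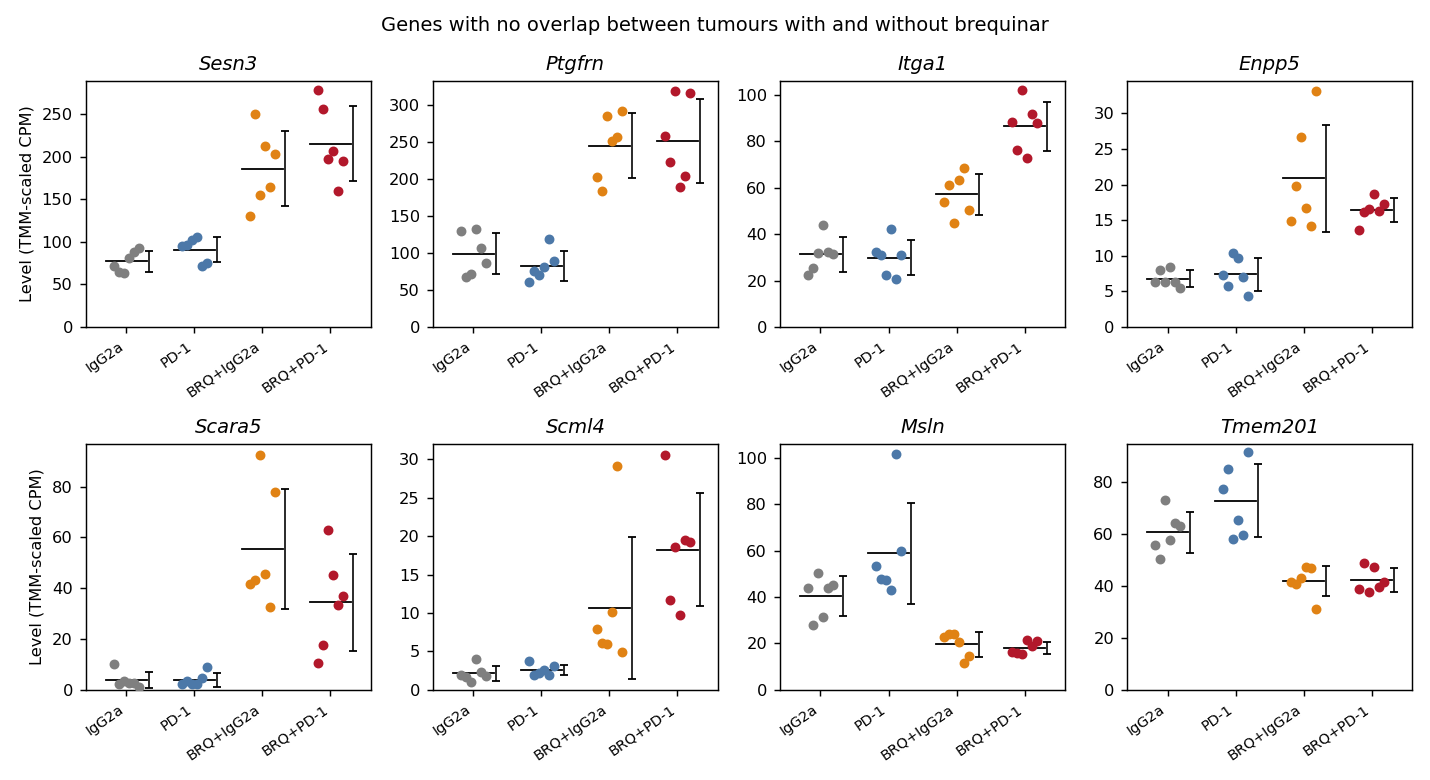
Level of 8 genes (TMM-scaled CPM, linear axis from 0) in each of the 24 tumours; points are tumours, horizontal lines group means and vertical bars the mean ± SD of 6 tumours. In each panel both brequinar groups lie wholly on one side of both groups without brequinar, above for Sesn3, Ptgfrn, Itga1, Enpp5, Scara5 and Scml4 and below for Msln and Tmem201.

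Itga1, a chain of a collagen receptor, went from 20.9, 31.3 and 44.0 CPM (lowest, median, highest) to 45.0, 70.6 and 102 CPM, a log2 fold change of 1.20 ± 0.13 (adjusted p 7.69e-06). Its rise was 0.86 ± 0.15 with IgG2a and 1.52 ± 0.15 with anti-PD-1, and the interaction had an unadjusted p of 0.00671 and an adjusted p of 0.534. Itga8, which pairs with integrin beta-1 to bind nephronectin, went from 1.54, 2.79 and 3.78 to 4.06, 7.47 and 10.7 CPM (1.36 ± 0.18). Itga4, the alpha chain of a leukocyte integrin, was named after its values were seen, since it falls outside the naming rule. It went from 18.4, 21.7 and 32.8 to 33.5, 45.3 and 156 CPM (1.25 ± 0.19), and its lowest brequinar tumour stood just above the highest of the others. The others with higher levels that are given here, also named after their values were seen, were Tent5a, Glrb, Pigh, C130026I21Rik, 2 genes without a symbol and App, the amyloid precursor protein gene (759, 1213 and 1327 against 1356, 1594 and 1809.5 CPM; 0.45 ± 0.08).

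Lower in every brequinar tumour were Msln, Tmem201, Nop56, Pcbp1, Midn and Hmg20b. Msln encodes mesothelin, a surface protein anchored by a lipid. It went from 28.0, 46.2 and 102 CPM (lowest, median, highest) to 11.4, 19.7 and 24.3 CPM, a log2 fold change of -1.37 ± 0.16 (adjusted p 1.46e-05). Tmem201, of the inner nuclear membrane, went from 50.2, 63.5 and 91.5 to 31.2, 41.4 and 48.5 CPM (-0.66 ± 0.09). Nop56, a core protein of the box C/D small nucleolar ribonucleoproteins, went from 88.3, 107 and 122 to 67.4, 77.6 and 86.6 CPM (-0.42 ± 0.06, adjusted p 0.000129). For Nop56 the changes were -0.34 ± 0.08 with IgG2a and -0.51 ± 0.09 with anti-PD-1. Pcbp1, Midn and Hmg20b fall outside the naming rule and were named after their values were seen. Without the muscle-rich libraries, 68 genes had no overlap in place of 23, a count that can rise merely because fewer libraries are compared.

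Among called genes with a mean of at least 1 CPM and a usual symbol, H2-M2 and Scara5 rose most over both antibodies. H2-M2, a nonclassical MHC class I gene, was at 0, 0.656 and 2.04 CPM without brequinar (lowest, median, highest) and at 1.19, 4.88 and 26.2 CPM with it, a log2 fold change of 3.55 ± 0.57 (adjusted p 0.000515). In 10 of the 12 brequinar tumours it lay above every tumour without brequinar, and its spread within the brequinar groups was wide. Iglon5, a neuronal cell adhesion gene, went from 0.367, 0.591 and 1.49 to 0.918, 4.32 and 9.04 CPM (2.62 ± 0.33). Meiob, a meiosis gene, went from 0.107, 0.404 and 1.10 to 1.09, 2.23 and 4.02 CPM (2.10 ± 0.29). Both lay above every other tumour in 11 of 12 brequinar tumours. Further rises at levels of a few CPM were Cxxc4, an inhibitor of Wnt signalling (2.10 ± 0.36), Lrrc4c, a netrin-G ligand (1.87 ± 0.39), and Sh3rf3, a ring finger gene (1.87 ± 0.35). Prex1, a Rac exchange factor, rose less but evenly, from 45.4, 55.3 and 76.9 to 76.1, 90.6 and 121 CPM (0.75 ± 0.08, adjusted p 7.69e-06).

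Myo1d, an unconventional myosin, rose by 1.89 ± 0.39, from 10.1, 17.6 and 35.6 to 13.5, 62.9 and 217 CPM. Its brequinar tumours overlapped with the others, and 9 of 12 lay above the mean of the tumours with the same antibody alone. Tox, which encodes a transcription factor found in exhausted T cells, rose by 1.89 ± 0.52 (adjusted p 0.0213), with 2.90 ± 0.70 under IgG2a and 0.92 ± 0.55 under anti-PD-1. Mcpt2, a mast cell protease, had 1.90 ± 0.61 (adjusted p 0.0445). That call held in 5 of the 24 fits that each left out 1 library, with an adjusted p up to 0.0825 (without BRQ+IgG2a replicate 5).

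Among the largest falls, Slc9b2, a sodium and proton antiporter, went from 0.276, 1.28 and 5.69 CPM (lowest, median, highest) to 0.0381, 0.199 and 0.812 CPM, a log2 fold change of -2.90 ± 0.56 (adjusted p 0.00229). It was under the expression filter among the anti-PD-1 tumours and so was not tested there. Ctsk, a collagen-degrading protease, went from 7.49, 26.2 and 108 to 4.41, 6.37 and 38.3 CPM (-2.24 ± 0.50). Its highest brequinar tumour was the muscle-rich one, and without the muscle-rich libraries its change was -2.32 ± 0.41 (adjusted p 0.00235). Npnt encodes nephronectin, the matrix ligand of the integrin that contains Itga8. It went from 0.701, 1.83 and 16.4 to 0.221, 0.609 and 4.98 CPM (-2.32 ± 0.63), with -2.13 ± 0.46 without the muscle-rich libraries. The call on Npnt was lost without IgG2a replicate 3 alone (adjusted p 0.0902). Moxd1, a monooxygenase gene, had -2.19 ± 0.61 (adjusted p 0.0226), with -1.07 ± 0.71 under IgG2a and -3.59 ± 0.71 under anti-PD-1. Padi4, an enzyme that turns arginine into citrulline in neutrophils, had -2.01 ± 0.51 (adjusted p 0.0126).

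Other genes with large falls lost the call without the 4 muscle-rich libraries. Ppp1r1a went from -2.73 to -0.79 (adjusted p 0.421), Slc43a1 from -2.31 to -0.26 (0.786) and Gstp2 from -1.79 to -0.63 (0.0969). Popdc3, a membrane protein gene of striated muscle, kept its call there at -2.04 ± 0.38 (adjusted p 0.00286). It lost the call without the muscle-rich IgG2a replicate 3 alone (adjusted p 0.0513). The part of muscle content in the falls was not tested beyond this.

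The genes of de novo pyrimidine synthesis themselves moved little. Dhodh, which encodes the enzyme that brequinar inhibits, was at 11.3, 13.2 and 17.4 CPM without brequinar (lowest, median, highest) and at 8.49, 12.6 and 14.5 CPM with it. The ranges overlapped for most of their length, and the log2 fold change of -0.09 ± 0.08 did not pass the test (adjusted p 0.467). Cad, which encodes the trifunctional enzyme of the first steps, had -0.15 ± 0.08 (0.206), and Umps, which encodes the enzyme of the last steps to UMP, -0.13 ± 0.08 (0.328). These levels are of RNA and do not measure the enzyme activity. Of the 11 tested genes of the list, Cmpk2, a mitochondrial nucleotide kinase that interferon induces, rose by 0.84 ± 0.23 and Nme1, a nucleoside diphosphate kinase, fell by 0.37 ± 0.10. Cmpk2 had 4.19, 9.43 and 18.6 CPM without brequinar and 7.54, 15.6 and 30.9 CPM with it, with 1.30 ± 0.31 under IgG2a and 0.36 ± 0.26 under anti-PD-1. Without the muscle-rich libraries Nme1 lost its call.

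Slc29a1 and Slc29a2, equilibrative nucleoside transporters that let cells take up uridine, moved in opposite directions. Slc29a1 rose from 58.5, 89.0 and 111 CPM (lowest, median, highest) to 72.7, 125 and 148 CPM (0.39 ± 0.11, adjusted p 0.0231). Slc29a2 fell from 6.54, 8.82 and 13.3 to 4.52, 5.83 and 10.1 CPM (-0.54 ± 0.13, adjusted p 0.00789). The ranges of both genes overlapped between the sides, with 10 of 12 brequinar tumours of Slc29a2 below every tumour without brequinar and 7 of 12 of Slc29a1 above. For Slc29a1 the call was lost in 2 of the 24 fits without 1 library, with the adjusted p reaching 0.0529 without BRQ+IgG2a replicate 6. In the salvage, transport and breakdown list as a whole, 4 of 21 tested genes were higher and 1 lower. That is 23.8% called, against 11.7% of all genes. The other 3 that rose were Slc29a3, Tk2, the mitochondrial thymidine kinase (0.22 ± 0.06), and Dpyd, which starts pyrimidine breakdown (1.21 ± 0.35). The call on Dpyd was lost without BRQ+IgG2a replicate 2 (adjusted p 0.0643). The list's median of -0.06 was near that of all genes, and the count of rises was 2 if IgG2a replicate 3 or BRQ+IgG2a replicate 6 was left out, while 3 genes fell if BRQ+IgG2a replicate 5 was left out.

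In the deoxynucleotide supply list 2 of 13 were lower (15.4%, against 5.39% of all genes), Dtymk and Shmt1, with a median of -0.30. The count ran from 0 to 6 when 1 library was left out (6 without BRQ+PD-1 replicate 4). Both calls were lost without the muscle-rich libraries (adjusted p 0.084 for Dtymk and 0.072 for Shmt1). Of the 13 genes, 10 had an unadjusted p under 0.05, against 4388 of all 16029. With anti-PD-1 alone edgeR called 0 of them, DESeq2 3 lower and limma voom 10 lower, at a median of -0.41, against a median of -0.13 with IgG2a. In the UDP-sugar and sialic acid list 2 of 16 were lower (12.5%, against 5.39% of all genes). Npl, the sialic acid lyase, was at 6.08, 9.48 and 25.1 CPM without brequinar (lowest, median, highest) and at 1.65, 3.56 and 6.83 CPM with it. All but 1 of the 12 brequinar tumours lay below every other tumour, and the change was -1.67 ± 0.25 (adjusted p 0.000261), with -1.92 ± 0.38 under IgG2a and -1.44 ± 0.29 under anti-PD-1. Cmas, which makes CMP-sialic acid from CTP, went from 31.7, 39.7 and 59.4 to 28.3, 32.1 and 35.6 CPM (-0.34 ± 0.08, adjusted p 0.00988). Without BRQ+PD-1 replicate 4 the list had 4 lower genes.

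In the CDP-choline and CDP-ethanolamine pathway, 0 of 12 genes were called by edgeR (3 at an unadjusted p under 0.05), 2 by DESeq2 and 2 by limma voom. Of all 16029 genes tested with edgeR, 4388 had an unadjusted p under 0.05. Pcyt1a, the enzyme that joins CTP and phosphocholine, was at 87.8, 97.6 and 118 CPM without brequinar (lowest, median, highest) and at 91.9, 115 and 172 CPM with it, a log2 fold change of 0.26 ± 0.09 (adjusted p 0.0574). Chka, choline kinase alpha, had -0.22 ± 0.09 (0.107), and the median of the list was 0.08. Of the 22 prostaglandin and leukotriene genes, Ptger4, a receptor for prostaglandin E, rose from 7.19, 9.34 and 11.9 to 10.2, 15.6 and 22.4 CPM (0.67 ± 0.12, adjusted p 0.000907), with 0.72 ± 0.19 under IgG2a and 0.60 ± 0.13 under anti-PD-1. Ltc4s and Ptges3 fell, and both lost the call in some fits without 1 library and without the muscle-rich libraries (adjusted p 0.132 and 0.17), where 3 genes of the list were higher. Ptgs2, the inducible cyclooxygenase, ranged from 17.9 to 1279.7 CPM among the brequinar tumours and from 91.8 to 783 CPM among the others, and its change was -0.06 ± 0.59 (adjusted p 0.965).

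Genes of ribosome biogenesis were lower with brequinar. Of the 34 genes of the list, 17 fell and 1 rose, against 5.39% lower and 6.34% higher among all genes. The median log2 fold change was -0.23, and 33 of 34 fitted changes were negative. The 17 included nucleolar proteins of rRNA modification and processing (Nop2, Nop56, Nop58, Fbl, Rrp9, Gar1, Nhp2) and subunits of RNA polymerase I (Polr1a, Polr1b, Polr1e), with Polr1c, a subunit that polymerase I shares with polymerase III. Nop2, an rRNA methyltransferase, went from 55.0, 68.9 and 98.6 CPM (lowest, median, highest) to 41.4, 48.7 and 58.6 CPM, and 11 of 12 brequinar tumours lay below all tumours without brequinar. Its log2 fold change was -0.57 ± 0.09 (adjusted p 0.000327), with -0.38 ± 0.10 under IgG2a and -0.77 ± 0.13 under anti-PD-1. Polr1b went from 31.7, 36.3 and 44.5 to 24.4, 28.7 and 33.9 CPM (-0.35 ± 0.06), and Rrp9 from 23.8, 29.1 and 38.0 to 12.7, 21.9 and 26.3 CPM (-0.46 ± 0.09). The gene that rose was Taf1b, a subunit of the polymerase I selectivity factor (0.25 ± 0.07, adjusted p 0.0278), a call that was lost without the muscle-rich libraries.

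The median of the ribosome biogenesis list was -0.15 with IgG2a and -0.36 with anti-PD-1. In the arms alone 1 gene was called lower with IgG2a and 12 with anti-PD-1, against 0.303% and 1.26% of all genes. The interaction had an unadjusted p under 0.05 for 8 of the 34 but an adjusted p under 0.05 for 0 with edgeR, DESeq2 or limma voom. Without the muscle-rich libraries 13 genes were lower, and leaving out single libraries gave 14 to 22. Myc, whose product activates transcription of this gene class, fell from 59.5, 83.4 and 102 CPM (lowest, median, highest) to 39.0, 54.1 and 76.1 CPM (-0.56 ± 0.10, adjusted p 0.00118). The change was -0.33 ± 0.14 under IgG2a and -0.80 ± 0.11 under anti-PD-1, with an unadjusted interaction p of 0.0142 (adjusted 0.576). It was the 1 gene called of the 13 in the MYC network list (7.69%, against 5.39% of all genes lower), whose median was 0.03. Of 24 genes of transcription elongation and P-TEFb control, 0 were called by edgeR (2 at an unadjusted p under 0.05), 1 by DESeq2 and 1 by limma voom.

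Genes of the integrated stress response, the programme that ATF4 drives under amino acid shortage and other stresses, were also lower. Of 27 genes, 13 fell, 26 fitted changes were negative, and the median log2 fold change was -0.31. Chac1, which degrades glutathione, had the largest fall. Its level was 10.1, 22.7 and 43.9 CPM without brequinar (lowest, median, highest) and 4.42, 8.67 and 16.9 CPM with it, with 8 of 12 brequinar tumours below all others, and the change was -1.43 ± 0.25 (adjusted p 0.00131). Sesn2, a sestrin and a p53 target as well, went from 45.9, 68.2 and 111 to 34.3, 39.8 and 51.7 CPM (-0.80 ± 0.12, adjusted p 0.00036), with 10 of 12 brequinar tumours below all others. Sesn2 fell while Sesn3 of the same family rose. Trib3 (-0.94 ± 0.26), Atf4 itself (-0.48 ± 0.14) and the mitochondrial serine and folate enzyme gene Shmt2 (-0.52 ± 0.11) fell too, of which Trib3 and Atf4 fall outside the naming rule.

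The median of the stress list was -0.26 with IgG2a and -0.38 with anti-PD-1, and the interaction had an unadjusted p under 0.05 for 0 of the 27 with edgeR and was called for 0 by DESeq2 and 1 by limma voom. The count of 13 became 8 without the muscle-rich libraries, at a median of -0.32, and 7 without PD-1 replicate 2. In the p53 target list 8 of 27 genes fell and 1 rose (33.3% called, against 11.7% of all genes). Among the falls were Sesn2, the exonuclease gene Aen (-0.44 ± 0.09, adjusted p 0.0028) and Trp53, which encodes p53 itself. Fas, the death receptor gene, rose from 4.63, 7.57 and 10.8 to 9.27, 10.7 and 11.8 CPM (0.42 ± 0.10), and 12 of 12 brequinar tumours lay above the mean of the tumours with the same antibody alone. The list's median was -0.19, and without BRQ+IgG2a replicate 5 the count of falls was 13. In the S phase list 3 of 32 genes fell (9.38%, median -0.15) and in the mitosis list 1 of 30 (3.33%, median -0.16). Of all genes tested, 5.39% were lower. Leaving out single libraries moved the S phase count between 1 (without IgG2a replicate 1, among others) and 5 (without BRQ+PD-1 replicate 4), and the mitosis count between 0 (without IgG2a replicate 1, among others) and 3 (without BRQ+PD-1 replicate 4). With the muscle-rich libraries left out, 1 S phase and 0 mitosis genes fell. By their medians both lists were lower with anti-PD-1 than with IgG2a, at -0.25 against -0.06 for S phase and -0.32 against 0.01 for mitosis. With anti-PD-1 alone edgeR called 0 of either list, with 9 and 15 genes at an unadjusted p under 0.05, DESeq2 called 1 and 5 lower and limma voom 9 and 20. Among all genes with anti-PD-1, 3090 of 15035 had an unadjusted p under 0.05 with edgeR. The interaction was negative for 31 of 32 and 30 of 30 genes, with an unadjusted p under 0.05 for 0 of either list, and limma voom called 1 mitosis gene for it.

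**Figure D3:**
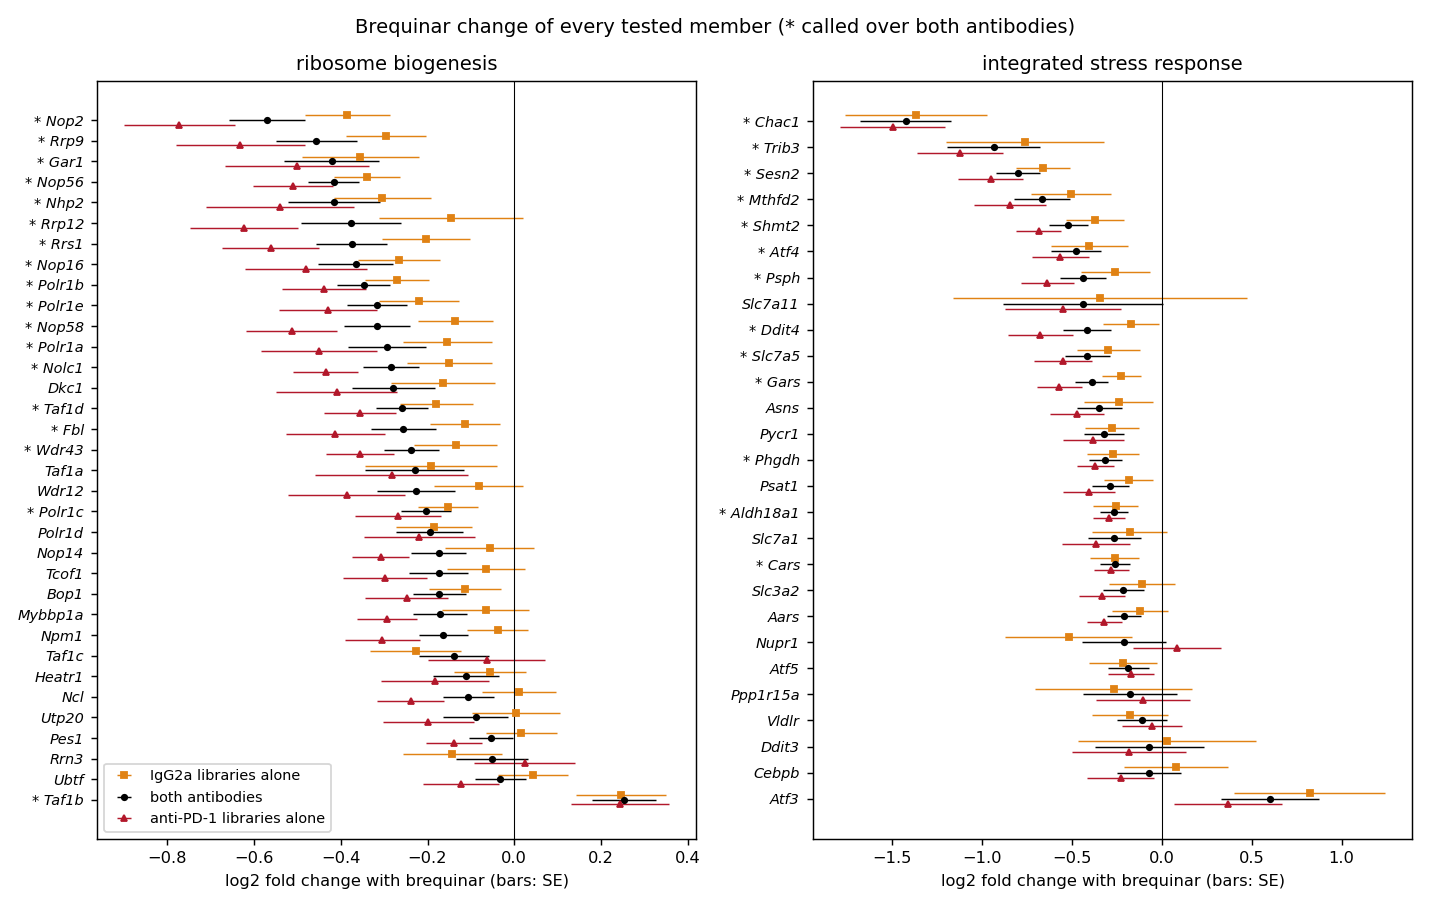
Log2 fold change with brequinar (x axis; bars are standard errors) for each tested gene of the ribosome biogenesis and integrated stress response lists, over both antibodies (black, 12 tumours against 12) and in each antibody arm (orange and red, 6 against 6). Stars mark the 17 and 13 genes called lower and Taf1b, called higher; for most genes the anti-PD-1 arm lies furthest to the left, down to Nop2 and Chac1 at the top.

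The promoter of Chac1 is shown because Chac1 led the falls in this list and its window holds a match to the element that ATF4 binds. The window is the 250 bases before the transcription start in the RefSeq table (GRCm38.p6, chr2:119350992-119351241, plus strand), which is not the build of the counts. Capitals mark the match to TGATGNAA, searched on both strands, whose first base lies 193 bases before the start.
Chac1: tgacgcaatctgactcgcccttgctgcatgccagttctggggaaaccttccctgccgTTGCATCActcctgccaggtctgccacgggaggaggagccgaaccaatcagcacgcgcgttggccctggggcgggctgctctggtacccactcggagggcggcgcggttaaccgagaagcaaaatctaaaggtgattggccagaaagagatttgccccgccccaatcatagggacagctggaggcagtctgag
This motif occurred in 2 of the 11 called genes of the list with a window and in 7 of the 14 not called (18.2% and 50%), against 3.91% of the 27025 genes in the table. The match describes these letters only.

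Antigen presentation and interferon genes were higher with brequinar. Of 22 genes of MHC class I presentation, 12 rose, all 22 fitted changes were positive and the median was 0.47. B2m, the light chain of every class I molecule, went from 1420.4, 1638 and 2166 CPM (lowest, median, highest) to 1726, 2329.6 and 3332 CPM (0.46 ± 0.10, adjusted p 0.00414), with 8 of 12 brequinar tumours above all others. H2-M3, which presents formylated peptides, went from 30.1, 34.6 and 51.2 to 39.6, 52.4 and 77.2 CPM (0.54 ± 0.11), and Nlrc5, the transactivator of class I genes, from 51.1, 68.9 and 109 to 84.4, 106 and 156 CPM (0.57 ± 0.12). Class I genes are close copies of one another, and reads may be shared among them. Of 13 genes of MHC class II presentation, 7 rose, with a median of 0.86. Cd74, the invariant chain, went from 285, 819 and 1648 to 470.3, 1751 and 3942 CPM (1.37 ± 0.33, adjusted p 0.0103), and the 2 ranges overlapped widely. The class II count was 4 without IgG2a replicate 3.

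In the interferon gamma list 18 of 34 genes rose (median 0.81), and 15 of the 35 type I interferon genes rose (median 0.56). Gbp2, a guanylate-binding GTPase that interferon gamma induces, went from 48.1, 142 and 260.5 CPM (lowest, median, highest) to 179.6, 304 and 565 CPM (1.13 ± 0.24, adjusted p 0.00409), with 8 of 12 brequinar tumours above all others. Gbp7 went from 47.2, 71.0 and 123 to 75.8, 119 and 201 CPM (0.79 ± 0.17). Parp9 and Dtx3l, which share a promoter region and form a complex, had the smallest adjusted p of the type I list. Parp9 went from 42.6, 50.3 and 67.4 to 55.4, 78.2 and 105 CPM (0.59 ± 0.10, adjusted p 0.000513) and Dtx3l from 40.8, 53.9 and 74.7 to 60.3, 84.7 and 117 CPM (0.65 ± 0.11, adjusted p 0.000479). Without the muscle-rich libraries the counts were 22 and 10 genes, and leaving out single libraries gave 14 to 20 and 11 to 20.

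The promoters of Gbp2 and Gbp7 are shown because both genes rose and their windows hold interferon elements. Each window is the 250 bases before the start in the RefSeq table (GRCm38.p6), chr3:142620413-142620662 for Gbp2 and chr3:142530086-142530335 for Gbp7, both on the plus strand. Capitals mark matches on either strand to the interferon-stimulated response element (ISRE; GAAA, any 2 bases and GAAA again) or to TTCNNNGAA, the gamma-activated site (GAS). Gbp2 has an ISRE match whose first base is 59 bases before the start. Gbp7 has GAS matches 106 and 87 bases before it and an ISRE match 53 bases before it, with no overlap among them.
Gbp2: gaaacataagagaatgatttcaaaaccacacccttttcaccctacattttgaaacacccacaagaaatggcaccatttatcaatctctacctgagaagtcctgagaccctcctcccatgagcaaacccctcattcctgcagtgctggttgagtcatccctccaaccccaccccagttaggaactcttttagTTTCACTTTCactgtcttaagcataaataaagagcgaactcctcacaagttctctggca
Gbp7: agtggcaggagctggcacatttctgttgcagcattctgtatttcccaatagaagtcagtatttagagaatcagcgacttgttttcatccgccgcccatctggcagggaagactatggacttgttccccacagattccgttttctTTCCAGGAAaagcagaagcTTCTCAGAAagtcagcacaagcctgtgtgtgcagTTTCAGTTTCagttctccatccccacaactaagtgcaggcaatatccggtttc
An ISRE match occurred in 11 of the 23 called interferon genes with a window (47.8%) and in 10 of the 27 not called (37.0%). Its share was 8.16% of all genes called higher and 3.46% of all genes in the table. A GAS match occurred in 34.8% of the called and 33.3% of the uncalled interferon genes, against 8.13% of all genes.

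The interferon and presentation genes changed more with IgG2a than with anti-PD-1 as the other antibody, by their medians. For the interferon gamma list the medians were 1.32 and 0.30, for type I interferon 0.96 and 0.08, for MHC class I 0.70 and 0.19 and for MHC class II 1.39 and 0.31. With IgG2a alone 14, 16, 7 and 1 genes of these lists were called higher, against 1.92% of all genes. With anti-PD-1 alone edgeR called 0 in each, against 1.14% of all genes higher. There 6, 3, 3 and 2 genes had an unadjusted p under 0.05, out of 34, 35, 22 and 12 tested. Among all genes with anti-PD-1 it was 3090 of 15035. DESeq2 called 1, 1, 0 and 0 genes of these lists with anti-PD-1 and limma voom 3, 0, 2 and 2. The interaction was negative for all 35 type I interferon genes and had an unadjusted p under 0.05 for 28 of them. After adjustment over all genes it was called for 0 of the 35 by edgeR, 0 by DESeq2 and 5 by limma voom. Gbp2 rose by 1.71 ± 0.33 with IgG2a and had 0.54 ± 0.20 with anti-PD-1, an interaction of -1.16 ± 0.40 (unadjusted p 0.0081, adjusted 0.534). Among tumours without brequinar the anti-PD-1 mean was the higher one: Gbp2 had 100.3 ± 49.0, 198 ± 56.1, 329 ± 130.3 and 289.9 ± 60.9 CPM in IgG2a, PD-1, BRQ+IgG2a and BRQ+PD-1 (mean ± SD, n = 6 each).

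Genes of T cells and of cytotoxic lymphocytes rose with brequinar on average over both antibodies. Of 24 tested T cell genes, 13 rose, with a median of 1.13. The summed level of the 25 T cell markers ran from 99.6 to 379 CPM with brequinar (median 182) and from 80.9 to 248 CPM without it (median 127). Cd4, the coreceptor of helper T cells, went from 1.74, 4.24 and 7.20 CPM (lowest, median, highest) to 5.02, 10.4 and 15.4 CPM (1.26 ± 0.26, adjusted p 0.00345). Cd8a, the coreceptor of cytotoxic T cells, went from 1.42, 5.31 and 14.2 to 3.72, 14.8 and 39.8 CPM (1.43 ± 0.38, adjusted p 0.0189). In both genes 7 of 12 brequinar tumours lay above all others, and the lowest brequinar tumours lay within the range of the rest. Icos, a costimulatory receptor, rose by 1.57 ± 0.34. The count of T cell genes was 16 without the muscle-rich libraries, where 1 gene was lower, and ran from 9 to 18 without single libraries.

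Of 27 genes of cytotoxic lymphocytes, 9 rose (median 0.78). Prf1, which encodes perforin, went from 1.42, 3.76 and 7.36 CPM (lowest, median, highest) to 6.26, 9.47 and 32.7 CPM (1.70 ± 0.30, adjusted p 0.00127), with 10 of 12 brequinar tumours above all others. Cst7, a cystatin of cytotoxic cells, went from 0.746, 1.29 and 3.15 to 2.41, 3.23 and 6.69 CPM (1.35 ± 0.22), and Klrd1, the CD94 receptor gene of natural killer cells, rose by 1.27 ± 0.29. Of 19 checkpoint and exhaustion genes, 8 rose (median 0.52). Pdcd1, which encodes PD-1, went from 0.814, 2.47 and 7.85 to 2.79, 5.08 and 15.2 CPM (1.35 ± 0.35, adjusted p 0.0153) and Havcr2, which encodes TIM-3, from 7.18, 12.4 and 15.3 to 12.7, 17.2 and 29.9 CPM (0.71 ± 0.15). Among 12 checkpoint ligands 4 rose and 1 fell, and the fall was lost without the muscle-rich libraries. Cd274, which encodes PD-L1, went from 12.8, 28.3 and 43.9 to 29.8, 42.6 and 95.3 CPM (1.03 ± 0.21, adjusted p 0.00323). Of 12 regulatory T cell genes 4 rose (33.3%, against 6.34% of all genes), among them Foxp3 (1.15 ± 0.35, adjusted p 0.0333). The call on Foxp3 held in 16 of 24 fits without 1 library, and the list had 2 genes when the fit dropped IgG2a replicate 3 or 5, BRQ+IgG2a replicate 1 or BRQ+PD-1 replicate 3.

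As with the interferon genes, the medians were higher with IgG2a: 1.71 against 0.50 for T cells and 1.29 against 0.39 for cytotoxic genes. With IgG2a alone edgeR called 6 of 24 T cell and 6 of 25 cytotoxic genes higher, against 1.92% of all genes. With anti-PD-1 alone it called 0 of 24 and 1 of 26, against 1.14% of all genes. There 3 and 5 genes had an unadjusted p under 0.05, beside 3090 of 15035 among all genes. DESeq2 called 0 and 3 higher there, and limma voom 2 and 4, with 1 T cell gene lower. Cd4 rose by 2.05 ± 0.28 with IgG2a (adjusted p 0.00459) and had 0.47 ± 0.26 with anti-PD-1 (0.326). The interaction for Cd4 was -1.57 ± 0.39, with an unadjusted p of 0.000542 and an adjusted p of 0.387. Its level was 2.85 ± 1.08, 5.75 ± 1.40, 11.9 ± 3.48 and 8.03 ± 3.63 CPM in IgG2a, PD-1, BRQ+IgG2a and BRQ+PD-1 (mean ± SD, n = 6 each). Prf1 had 2.47 ± 0.43 and 0.92 ± 0.23 in the 2 arms and an adjusted interaction p of 0.529. The interaction had an unadjusted p under 0.05 for 12 of 24 T cell genes and 10 of 27 cytotoxic genes. After adjustment edgeR called 0 of either list, DESeq2 0 and 1, and limma voom 3 and 2.

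**Figure D4:**
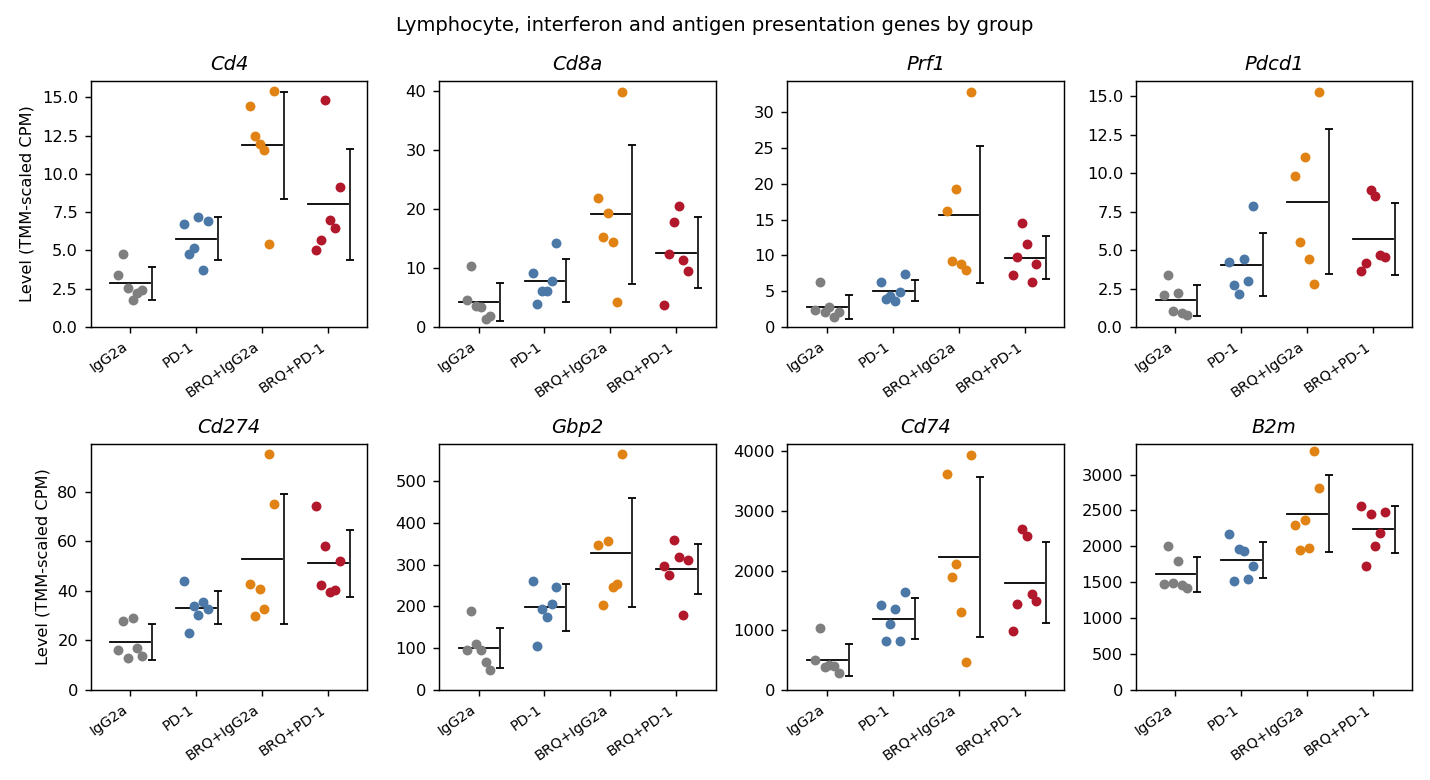
Level of 8 lymphocyte, interferon and antigen presentation genes (TMM-scaled CPM, linear axis from 0) in each of the 24 tumours; points are tumours, horizontal lines group means and vertical bars the mean ± SD of 6 tumours. In every panel the IgG2a mean is the lowest, the PD-1 mean the next and both brequinar means higher. Some brequinar tumours lie within the range of the tumours without it in each panel. The IgG2a and BRQ+IgG2a points are apart in some panels, such as Prf1 (at most 6.22 against at least 8.02 CPM) and Cd274 (28.9 against 29.8 CPM).

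Chemokine receptor and ligand genes of lymphocyte traffic rose as well, 7 of 18 (median 0.63). Cxcl9, an interferon-induced attractant of T cells, rose by 1.19 ± 0.29 (adjusted p 0.0115). Dendritic cell genes were higher for 4 of 16 (25%, against 6.34% of all genes). Among them were Xcr1, a receptor of cross-presenting dendritic cells (1.17 ± 0.29), and Itgax, which encodes CD11c (0.83 ± 0.21). Of 18 complement genes 4 rose (22.2%, against 6.34% of all genes). C1s1, a protease of the classical pathway, went from 46.0, 69.3 and 85.0 to 80.1, 93.6 and 136 CPM (0.56 ± 0.10, adjusted p 0.000928). The medians with IgG2a and with anti-PD-1 were 1.17 and 0.20 for the chemokine list, 0.86 and 0.07 for dendritic cells and 0.54 and 0.16 for complement. With anti-PD-1 alone 3 of 14, 1 of 15 and 4 of 17 genes had an unadjusted p under 0.05, beside 3090 of 15035 among all genes. The interaction was called for 0 genes of these lists by edgeR, DESeq2 or limma voom.

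Macrophage genes moved in both directions, with 5 of 28 higher and 4 lower (32.1% called, against 11.7% of all genes). The median was 0.28. Higher were Cd68, Fcgr4, Cd86, a costimulatory ligand (0.55 ± 0.11), Adgre1, which encodes F4/80 (0.56 ± 0.14), and Trem2, a lipid receptor (0.46 ± 0.12). Lower were Mertk, Fcna, Cd163 and Lyve1. Fcna, the lectin ficolin A, went from 3.24, 5.37 and 20.3 CPM (lowest, median, highest) to 0.508, 1.83 and 6.11 CPM (-1.79 ± 0.40, adjusted p 0.00585). Cd163, a haemoglobin scavenger receptor, went from 3.59, 8.15 and 77.2 to 0.889, 2.80 and 9.96 CPM (-1.97 ± 0.52), and Lyve1, a hyaluronan receptor of lymphatic vessels and of tissue macrophages, had -2.24 ± 0.66. The highest level of Cd163 was in PD-1 replicate 6, which is muscle-rich. Without the muscle-rich libraries Fcna had -1.11 ± 0.34 (adjusted p 0.0444), Cd163 had -1.21 ± 0.35 (0.0338) and Lyve1 had -1.02 ± 0.44 (0.153), so that the fall of Lyve1 was lost and those of Fcna and Cd163 were smaller by over 1.5 times.

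Of 11 mast cell genes 2 were called higher (18.2%, against 6.34% of all genes), Tpsb2 and Kit (0.55 ± 0.16, adjusted p 0.0278). All 11 fitted changes were positive, with a median of 1.06. The count depended on single libraries: it was 7 when IgG2a replicate 6 was left out, 6 for BRQ+IgG2a replicate 3, 5 for PD-1 replicate 6 or BRQ+PD-1 replicate 6, 0 for PD-1 replicate 2 or BRQ+PD-1 replicate 3, and 1 to 3 in the remaining fits. By their medians the mast cell genes changed more with anti-PD-1 (1.46) than with IgG2a (0.46). In the IgG2a arm 0 of 10 had an unadjusted p under 0.05, and edgeR, DESeq2 and limma voom called 0. In the anti-PD-1 arm it was 8 of 10, and these tools called 1, 5 and 3 higher. For all genes it was 2321 of 15159 and 3090 of 15035. An unadjusted interaction p under 0.05 was found for 1 of the 11, and each tool called 0. Kit and Mitf (0.67 ± 0.21) were also the 2 called over both antibodies of the 11 tested melanocyte and neural crest genes (18.2%). The call on Mitf held in 10 of 24 fits without 1 library and was lost without the muscle-rich libraries (adjusted p 0.0875), where 4 mast cell genes were called. Lgals7, of the keratinocyte list, fell from 23.1, 43.5 and 99.4 CPM (lowest, median, highest) to 8.11, 22.5 and 32.5 CPM (-1.29 ± 0.21, adjusted p 0.000459). It was the 1 gene called of 6 tested (16.7%, against 5.39% of all genes lower).

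Several cell type lists had no gene called by edgeR over both antibodies. These were endothelial cells (15 tested, 2 at an unadjusted p under 0.05), B and plasma cells (10 and 1), adipocytes (9 and 3), erythroid cells (5 and 1), skeletal muscle (18 and 3) and glycolysis and hypoxia (21 and 3). Among all 16029 genes tested, 4388 had an unadjusted p under 0.05. DESeq2 called 0 of the endothelial and B cell genes, 2 adipocyte, 1 erythroid, 2 skeletal muscle and 1 glycolysis gene. Limma voom called 2, 4, 2, 0, 0 and 0 of the 6 lists in the order given. The skeletal muscle median was -2.65 over all libraries and 0.55 without the muscle-rich ones, where its direction turned, and 5 of its genes were called lower when BRQ+IgG2a replicate 4 alone was left out. Neutrophil genes had 1 of 15 lower (Mmp9), fibroblast genes 1 of 18 higher (Col6a3) and ferroptosis defence genes 1 of 21 higher (Scara5). Of 12 mitochondrially encoded genes 1 rose (mt-Atp6) and of 11 smooth muscle and pericyte genes 1 fell (Actg2). The shares of these 5 lists, in order 6.67%, 5.56%, 4.76%, 8.33% and 9.09%, stand beside 6.34% higher and 5.39% lower among all genes. The calls on Mmp9 (adjusted p 0.095), Col6a3 (0.125), mt-Atp6 (0.0575) and Actg2 (0.0509) were lost without the muscle-rich libraries, where 1 neutrophil, 1 endothelial and 4 of 10 B and plasma cell genes were called higher, 1 elongation gene was called lower and 2 ferroptosis defence genes were called higher.

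**Figure D5:**
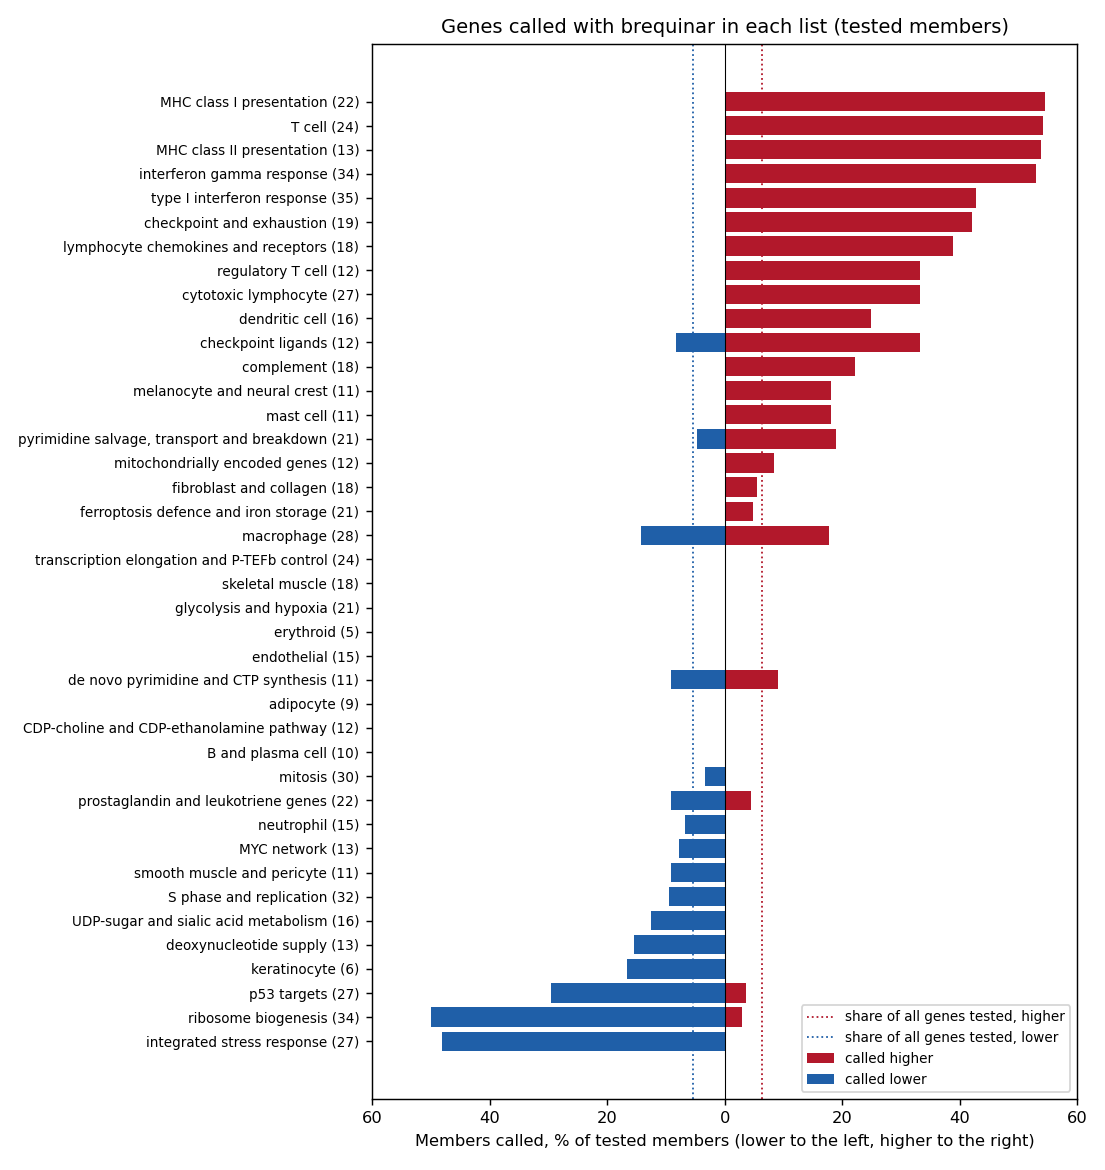
Share of the tested genes of each list called higher (red, right) or lower (blue, left) with brequinar over both antibodies, in percent, with the number tested in brackets; dotted lines give the share of all genes tested, 6.34% higher and 5.39% lower. Lists of antigen presentation, T cells and interferon lie at the top with 42.9 to 54.5% higher, and at the bottom ribosome biogenesis with 17 of 34 and integrated stress response with 48.1% lower.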

How the data were processed

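RNA from 24 D4M tumours was sequenced, 1 library each. The labels' protocols give an RNeasy kit for the RNA and Novogene for library preparation and sequencing. The submitters' processing notes list HISAT2 2.2.1 and StringTie 2.2.1, Trim Galore 0.6.7, FastQC 0.11.8, MultiQC 1.11 and build GRCm39. How reads were counted (program, annotation, strand) is not given in the sources used here. Whole-number counts, deposited by the authors without normalization, cover 55414 Ensembl genes. Deposited FPKM and TPM tables, as held here for 27854 genes, were not used. Columns were matched to samples by title.

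Levels are TMM-scaled CPM. The brequinar effect was fitted with edgeR 4.0.16 in R 4.3.3 (filterByExpr by group, robust quasi-likelihood F test, antibody and brequinar as terms, 21 residual degrees of freedom), with Benjamini-Hochberg adjustment over the 16029 genes tested and a call at an adjusted p under 0.05. Standard errors are the size of the log2 fold change over the root of F. Each antibody arm was also fitted alone, and the interaction over all 24 libraries. The test was checked on simulated counts. Labels call the replicates biological and say no more of them, so whether each tumour came from its own mouse is not known. The p-values weigh the brequinar difference against the spread between these tumours and take the tumours as independent. All 60 library pairs of the same group differed by at least 9.89 times the counting noise (at most 231 times), and no library was a copy.

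Symbols were matched by Ensembl ID for 52081 of all genes and 15980 of those tested. Genes of the H2, Gbp, Ifit, Klr and Trbc families have near-identical copies that may share reads, and overlapping antisense genes cannot be told apart. The 40 gene lists (775 genes, 717 tested) are described by counts and medians. The comparison, the lists and the naming rule were chosen with earlier results of these data known. Among called genes with a mean of at least 1 CPM and a usual symbol, the rule took the 12 largest rises and 12 largest falls, the 8 smallest adjusted p, up to 10 genes without overlap and up to 4 called genes per list (or the one with the smallest p). It added Dhodh, Cad, Umps, Pcyt1a, Chka, Ptgs2, Pdcd1, Cd274 and Cd8a in any case. It gave 135 genes, of which the text takes a part; some genes are not reported here. Alternatives changed the scaling (relative log expression), the filter (none), the tool (DESeq2 1.42.0; limma 3.58.1 voom with quality weights), the dispersion (not robust) and the model (replicate block, no antibody term, group means), or left out single libraries. Leaving out the 4 libraries with Acta1 above 1000 CPM was chosen after seeing the data.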

Additional observations from a re-analysis of the deposited data

Results flagged for a closer look

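Among 86 genes of the text, 344 sets of 6 libraries (1 gene in 1 group) were scanned on the log2(CPM + 0.5) scale for a library far from the other 5 by Dixon's test at the 95% level. The scan marked 23 sets, or 6.69%, and chance alone marks about 1 in 20.

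Muscle-rich libraries held 11 of these. In IgG2a replicate 2, Cad was low at 78.6 CPM (next library 104), and Gbp7 at 81.9 (57.6), Parp9 at 61.3 (47.8) and H2-M3 at 46.1 CPM (34.8) were high. In IgG2a replicate 3, Itga8 was low at 1.54 CPM (2.64), Mcpt2 low at 0.793 (5.8) and Padi4 high at 4.95 (1.63). In BRQ+IgG2a replicate 4, Ctsk was high at 38.3 CPM (10.1) and Npnt at 4.98 (0.648). In PD-1 replicate 6, Cd163 was high at 77.2 CPM (8.02) and Fcna at 19.2 (6.04).

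In the other libraries with brequinar, Kit was high at 26.2 CPM (14.9), Mitf high at 42 (18.5) and Cd4 low at 5.43 (11.6), all in BRQ+IgG2a replicate 5. Tmem201 was low at 31.2 CPM (40.6) in BRQ+IgG2a replicate 6 and Prex1 high at 116 (93.5) in replicate 1 of that group. In BRQ+PD-1 replicate 1, Dhodh was low at 8.49 CPM (12.1) and Cxxc4 at 0.502 (2.93), and C1s1 was high at 136 CPM (97) in BRQ+PD-1 replicate 3. Without brequinar, Dhodh was high at 17.4 CPM (13.7) in IgG2a replicate 1 and Cxxc4 at 2.51 (1.1) in IgG2a replicate 5. Cmpk2 was low at 4.19 CPM (10.4) in PD-1 replicate 2, and Slc29a2 high at 13.3 (9.08) in PD-1 replicate 5.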

How the results depend on the processing

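The 1881 genes called over both antibodies became 1277 to 2589 under every alternative but limma voom, which called 3416, and single libraries left out gave 1366 to 2329. The counts of the antibody arms varied more. With IgG2a (337 genes), no filter gave 191, DESeq2 959 and voom 1834, and with anti-PD-1 (360) they gave 227, 1239 and 1766. Single libraries left out gave 124 to 1333 with IgG2a, where every library but BRQ+IgG2a replicate 4 moved the count by over 1.5 times. With anti-PD-1 they gave 47 to 584, and PD-1 replicates 1 and 2 and BRQ+PD-1 replicates 2 to 6 moved it so far. The interaction called 13 genes with DESeq2, 268 with voom, 1 without the muscle-rich libraries and 0 to 1 without single libraries (1 without BRQ+PD-1 replicate 1). Genes without overlap numbered 68 in place of 23 without the muscle-rich libraries. That count compares the extremes of the 2 sides, so it can rise merely because fewer libraries are compared. The cause was not tested in any of these.

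A replicate block gave 1277 genes over both antibodies, 47 with IgG2a, 66 with anti-PD-1 and 0 for the interaction. The numbers are not known to pair tumours: of 36 pairs with the same number, 15 had a correlation over 0.1 (range -0.64 to 0.44), and 1 of 24 libraries correlated best with its own number. No called gene among the 135 named by the rule turned direction under any alternative run. Of these 135 genes, 23 lost the call without the filter, 23 with the block and 23 without the muscle-rich libraries. Genes near 1 CPM rest on 19.1 to 34.3 counts, which limits small changes there.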
